A study of Homo sapiens with 19 samples.

Results

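Tandem 3′ splice sites 3 nt apart are pairs of acceptors at the start of 1 exon, so that the spliced mRNA gains or loses a single codon's worth of sequence. They were taken from the deposited tables of alternative 3′ splice site events as every event whose longer and shorter exon differed by 3 nt, a rule that uses coordinates and no measured value. The rule found 620 of 3222 events in the table of AKAP8 knockdown in epithelial cells, 594 of 2994 in that of knockdown in mesenchymal cells and 613 of 3219 in that of epithelial against mesenchymal controls. Together these were 676 of 3613 events, which rested on 541 acceptor pairs in 510 genes. The pairs are fewer because 113 of them were listed in more than 1 event, for example with another upstream donor. A distance of 3 nt was the most frequent one in the tables, ahead of 4 nt with 86 pairs and 5 nt with 60.

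The cells were HMLE/Twist-ER, TERT-immortalized human mammary epithelial cells that carry the transcription factor Twist fused to an estrogen receptor domain, so that tamoxifen starts an epithelial-mesenchymal transition (EMT). All groups shared this one line. EPI cells were untreated and MES cells had received tamoxifen at 20 nM until their morphology was mesenchymal, and each state was sequenced with a lentiviral control shRNA (EPI control, 3 libraries; MES control, 3) or an shRNA against AKAP8, a nuclear RNA-binding splicing regulator (EPI shAKAP8, 3; MES shAKAP8, 2). The MES knockdown table held only the first 2 of the 3 MES control libraries of the EMT table, and the labels name no separate cultures, so p-values measure the spread between these libraries.

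In the second step of splicing the spliceosome joins the upstream exon to an AG at the intron's end, which U2AF has helped to mark together with the pyrimidine tract before it. When a second AG lies 3 nt downstream, in the arrangement called NAGNAG, either can be used, and the reading frame is kept. The upstream acceptor gives the longer exon and the downstream acceptor the shorter. PSI is used here for the percent of junction reads, corrected for the effective length of each form, that came from the longer exon.

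Of the 541 pairs, 532 had an AG at the end of both trinucleotides in GRCh37. CAGCAG was the most frequent arrangement, with 237 pairs (43.8%), followed by TAGCAG with 98, AAGCAG with 54, CAGAAG with 45, TAGAAG with 27 and CAGTAG with 25. The pairs below show what the results turn on: 5 of the 6 pairs that passed the adjusted p in EMT, then 1 pair with use of both acceptors and very many reads, then 1 pair whose upstream acceptor was used almost always. Each line has 17 intronic bases, the 2 trinucleotides in capitals, and 6 exonic bases, 5′ to 3′ on the transcribed strand. The upstream acceptor cuts after the first trinucleotide and the downstream acceptor after the second.
ATF7IP, chr12:14587251-14587279, plus strand: ttttctatatttgttaaCAGCAGaagtag
BRD7, chr16:50354680-50354708, minus strand: gcctgtttttccttttgAAGCAGattaca
NUDT4, chr12:93792524-93792552, plus strand: catttctttttatattcAAGCAGaaccaa
FDXR, chr17:72862993-72863021, minus strand: gctgccaccctgttcccCAGCAGcacccc
LIMA1, chr12:50586339-50586367, minus strand: tcttccttttgtaactcAAGCAGgtgact
EIF4G1, chr3:184041173-184041201, plus strand: tgtcttcatcccttgctTAGCAGgctggc
AFF1, chr4:88055603-88055631, plus strand: tcttctcttccacctccCAGAAGcacagg

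Both acceptors were annotated in Gencode 44 for 538 pairs. The pairs lay in coding sequence in 488 cases, in a 5′ UTR in 37, in a 3′ UTR in 9 and in a non-coding transcript in 7. In 458 coding pairs the longer exon added 1 residue between its neighbours, most often glutamine (151), alanine (132), serine (62) or glutamate (50), and in 26 it replaced 1 residue by 2. In 3 pairs, in LRRK1, DPH7 and MKLN1, the extra codon was a stop. The longer form had an EPI control PSI of 8.68% ± 7.81 in LRRK1, 5.19% ± 2.02 in MKLN1 and 25.3% ± 12 in DPH7 (SD, n = 3). In DPH7 the same acceptors joined to another donor had a mean PSI of 77.7% in EPI controls, and whether the codon is a stop in that form was not read.

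Both acceptors were used side by side at most of these sites. Of the 402 pairs listed in all 3 tables whose average was 20 or more junction reads in a library, 300 had an EPI control PSI from 10 to 90%, 74 lay above 90% and 28 below 10%. The median PSI was 59.5% in EPI controls and 63.4% in MES controls, and 276 pairs lay from 10 to 90% in all 4 groups. The longer form was the major one in all 4 groups at 231 pairs and the shorter form at 142, while at 29 pairs the major form differed between groups.

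**Figure D1:**
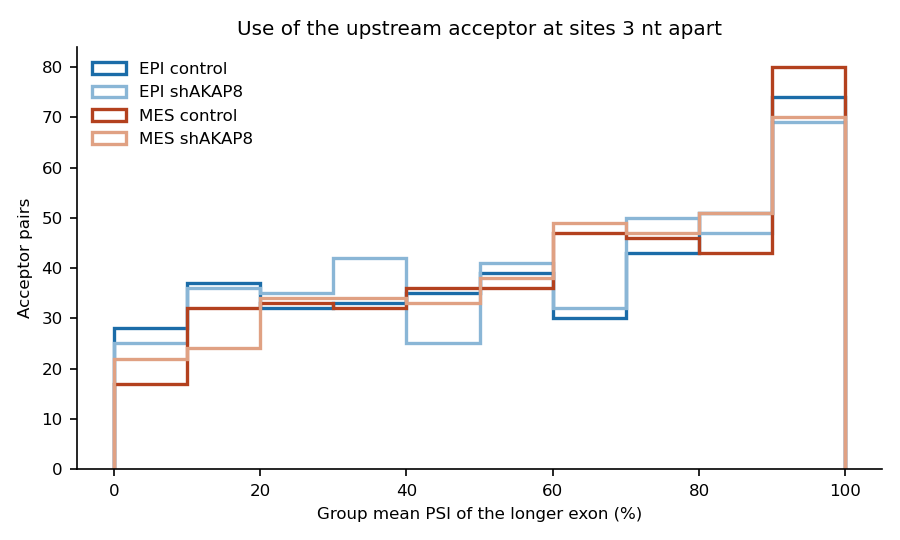
Number of acceptor pairs (vertical axis) by group mean PSI of the longer exon in percent (horizontal axis, bins of 10) for the 402 pairs, 1 line per group. The pairs fill the whole range in every group, and the highest bin holds the most, 74 pairs above 90% in EPI controls and 80 in MES controls.

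PSI differed widely between sequence arrangements. The median EPI control PSI was 94.8% for the 34 CAGAAG pairs and 84.4% for the 22 TAGAAG pairs, against 56.1% for the 169 CAGCAG pairs and 59.8% for the 76 TAGCAG pairs. It was 24.5% for the 41 AAGCAG pairs and 22.8% for the 7 AAGTAG pairs, so that where AAG stood beside CAG or TAG, the acceptor after AAG had the lower median use. The 12 AAGAAG pairs, with the same trinucleotide at both places, had a median of 63.8%. In MES controls CAGAAG was again highest of these arrangements, at 93.1%, and AAGTAG and AAGCAG lowest, at 26.5% and 34.1%. Pairs in coding sequence and in a 5′ UTR had medians of 59.7% and 55.6%.

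Most of the 8 most deeply read pairs with intermediate use held a similar level in all libraries. EIF4A2 had the widest range of these, from 23.6 to 35.3%, and its EPI and MES controls did not overlap. In GNAS, which encodes a G protein alpha subunit, PSI ran from 61.9 to 67.8% over the 11 libraries. In CNBP, a nucleic acid-binding zinc finger protein, it ran from 20.7 to 27.1%. GNAS (CTGCAG) and CNBP (TTGAAG) are among the 9 pairs without an AG at both places, and their upstream trinucleotide does not end in AG. EIF4G1, the scaffold of the translation initiation complex, ran from 27.0 to 35.4%, the adaptor SHC1 from 56.7 to 64.7%, the calpain inhibitor CAST from 72.1 to 80.7% and the histone variant gene H2AFY from 37 to 46.5%. Across the 402 pairs the median distance between the lowest and the highest group mean was 6.98 points, beside a median SD between libraries of 3.39 points in EPI controls and 3.88 in MES controls. For the 237 pairs with at least 100 reads it was 5.19 points, and 33 of them spanned 10 points or more.

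The check of the groups used reads over skipped-exon junctions summed per gene, which stand in for gene levels. AKAP8 had 244 to 310 scaled reads in EPI controls and 98.8 to 125 in EPI shAKAP8, and 196 to 382 against 108 to 122 in the MES groups. Its log2 change was −1.20 in both states (limma, adjusted p = 0.0664 in EPI and 0.0322 in MES), where 0.255% and 4.16% of 9014 genes passed. Of 10 epithelial and 10 mesenchymal markers listed, 5 and 7 could be tested. The others had no skipped-exon event listed in all 3 comparisons, so their levels were not read. All 5 epithelial markers were lower in MES controls, and all 7 mesenchymal ones were higher, where 23.9% of genes passed. Total reads over alternative 3′ splice site junctions ran from 1054815 to 1567895 per library, of which 111713 to 128543 fell on the 3-nt pairs.

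The comparison of EPI with MES controls asks whether acceptor choice moves with EMT. Of 441 events with enough reads, 5 changed (adjusted p under 0.05 and a difference of 10 points or more), and in all 5 the longer form rose in MES. This was 1.13% of the 3-nt events, where 1.27% of all 2591 alternative 3′ splice site events were called. By direction, 0.463% of all events were called higher and 0.81% lower. At an adjusted p under 0.05 without the size limit it was 6 events, where 2.2% of all events passed. The test was a quasi-binomial F test on junction reads with Benjamini-Hochberg adjustment over all events.

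ATF7IP, a cofactor of the histone methyltransferase SETDB1, had PSI values of 61.3, 67.3 and 58.2% in EPI controls and 89.3, 76.2 and 75% in MES controls. The groups did not overlap, and the difference was 17.9 points (adjusted p = 0.0197). The pair adds an alanine at residue 520. ARID1A, a subunit of the SWI/SNF chromatin remodelling complex, had 30.6, 25.3 and 36.6% in EPI controls and 56.0, 46.4 and 45.6% in MES controls. The groups again did not overlap, and PSI rose by 18.5 points (adjusted p = 0.0205), with a serine added at residue 1180.

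BRD7, a bromodomain subunit of a related remodelling complex, had 22.6, 21.2 and 29.0% in EPI controls and 39.9, 37.6 and 26.5% in MES controls. Here the third MES library fell inside the EPI range, and the difference was 10.4 points (adjusted p = 0.0299). NUDT4, a diphosphoinositol polyphosphate phosphohydrolase, had 30.3, 30.6 and 32.2% against 44.9, 43.7 and 38.0%, without overlap, and rose by 11.2 points (adjusted p = 0.0348). NUDT4 has a near-identical copy elsewhere in the genome, so its reads are uncertain. FDXR, the mitochondrial ferredoxin reductase, had 13.3, 19.0 and 9.82% against 26.0, 29.4 and 22.4%, also without overlap, and rose by 11.9 points (adjusted p = 0.0469). BRD7, NUDT4 and FDXR each gain a glutamine, at residues 501, 86 and 60.

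LIMA1, an actin-binding protein, passed the adjusted p (0.0249) with a rise of 4.62 points, under the size limit. Its PSI was 7.25, 9.27 and 9.15% in EPI controls and 16.5, 12.4 and 10.6% in MES controls. Just outside the adjusted p were EIF4A2, an RNA helicase of translation initiation, with a difference of 6.92 points (adjusted p = 0.0556), GPANK1, a G-patch protein whose pair lies in the 5′ UTR, with 20.9 points (adjusted p = 0.0589), and the nucleoside transporter gene SLC29A1 with 10.7 points (adjusted p = 0.0777).

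The 5 calls rested on few libraries. Without the first EPI control library, or without the first MES control library, 0 events were called, and without the third MES control library 8 were. Without the second or the third EPI control library 2 and 3 were called, and without the second MES control library 1. Limma on the logit of the read share called 0 of these events.

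**Figure D2:**
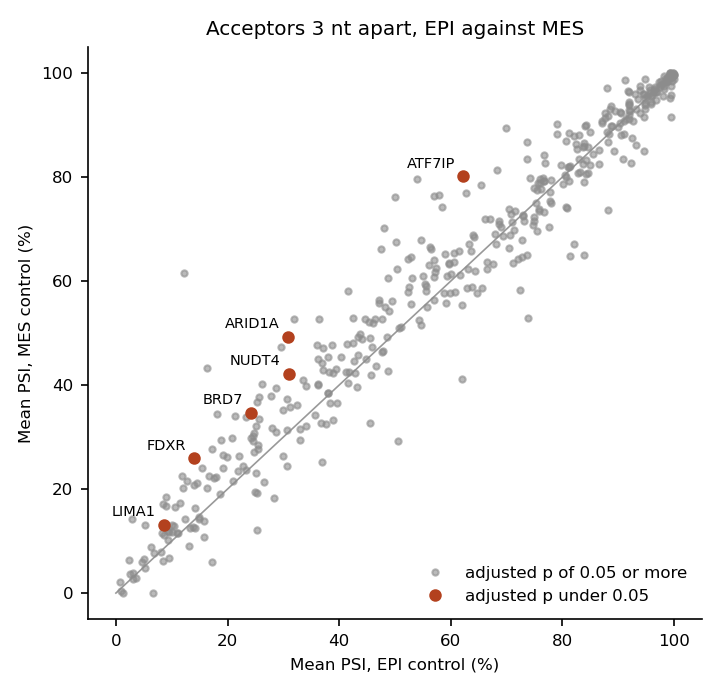
Mean PSI in MES controls (vertical axis, percent) against mean PSI in EPI controls (horizontal axis, percent) for the 441 events, with the line of equal values. The 6 named events with an adjusted p under 0.05 lie above the line, and most other events lie close to it.

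**Figure D3:**
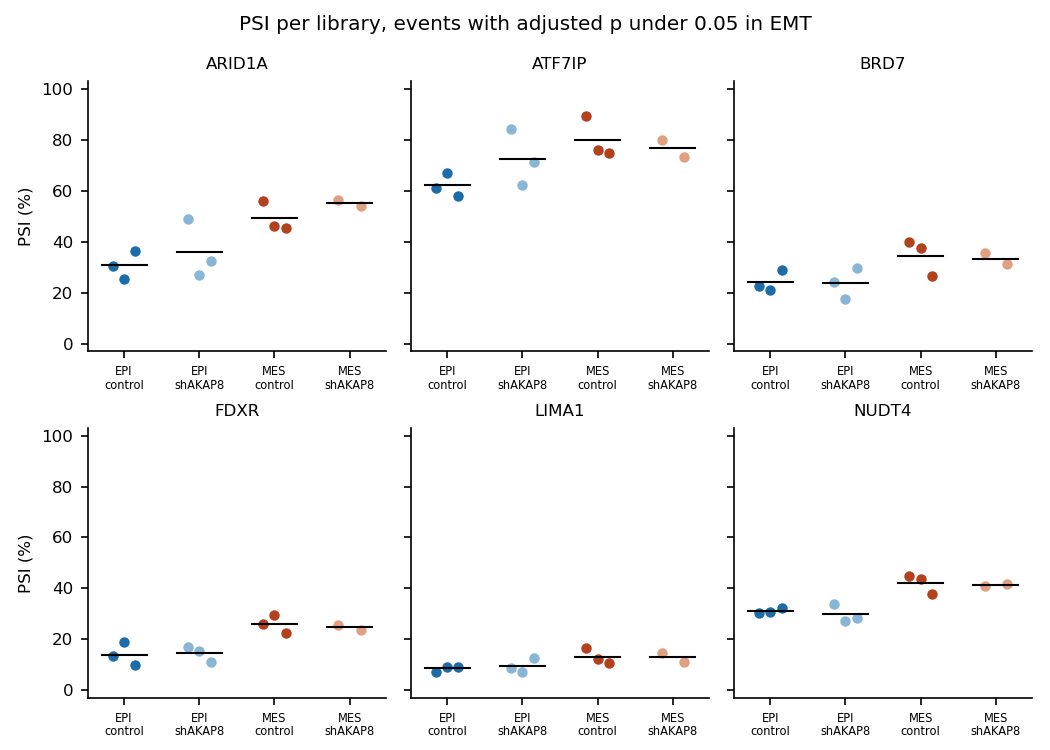
PSI in percent (vertical axis) of the 6 events in each library, 1 panel per gene and 1 column per group, with the group mean as a line. In each panel both MES group means lie above both EPI group means.

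The knockdown libraries, which the EMT test did not use, gave values for the same events. ARID1A had 49.0, 26.9 and 32.7% in EPI shAKAP8 and 56.7 and 54.0% in MES shAKAP8. NUDT4 had 34.1, 27.1 and 28.2% against 41.0 and 41.9%, and FDXR 16.9, 15.3 and 11.2% against 25.8 and 23.8%. BRD7 had 24.3, 17.6 and 29.9% against 35.5 and 31.2%. In these 4 genes every MES shAKAP8 library lay above every EPI shAKAP8 library, as it did in 91 of 427 3-nt events (21.3%) and in 10.9% of all 2258 events. ATF7IP had 84.2, 62.4 and 71.3% against 80.1 and 73.4%, and LIMA1 8.84, 7.08 and 12.6% against 14.8 and 11.1%, and in both the groups overlapped.

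Smaller differences leaned the same way. Of the 441 events, 277 (62.8%) had a higher PSI in MES controls, with a median difference of 1.23 points, where 47.4% of all alternative 3′ splice site events were higher and their median was −0.07 points. At an unadjusted p under 0.05 there were 47 events, 10.7% where 13% of all events passed, and 42 of the 47 were higher in MES. The groups did not overlap in 71 events, 16.1% where 15.4% of all events did not. In the knockdown libraries, 279 of 427 events (65.3%) were higher in MES than in EPI, where 44.6% of all events were. Of the 42 events, 40 were higher in MES shAKAP8 than in EPI shAKAP8, with a median difference of 6.36 points.

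The library medians showed this lean as well. Over the 314 pairs with a mean PSI from 10 to 90%, the median PSI was 52.9, 53.0 and 51.7% in EPI controls, 53.0, 49.9 and 52.5% in EPI shAKAP8, 59.8, 57.4 and 56.2% in MES controls and 58.9 and 55.6% in MES shAKAP8. Each of the 5 MES libraries lay above each of the 6 EPI libraries.

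**Figure D4:**
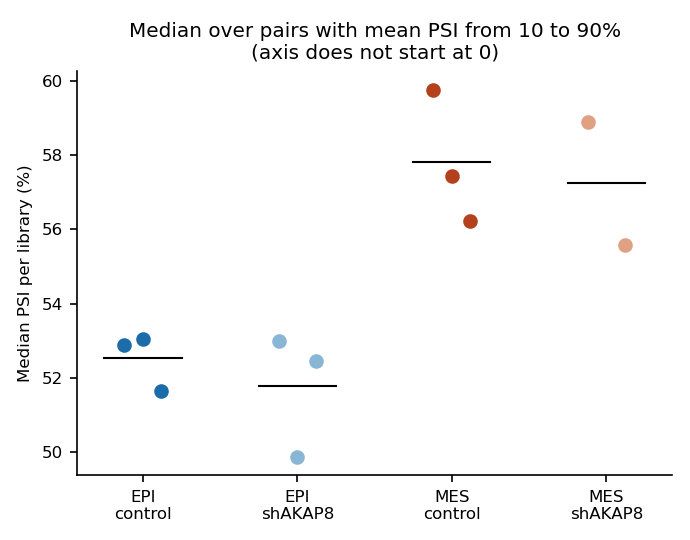
Median PSI in percent (vertical axis, which does not start at 0) over the 314 pairs in each library, 1 column per group, with the group mean as a line. The MES libraries lie between 55.6 and 59.8% and the EPI libraries between 49.9 and 53.0%.

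By sequence, the 44 AAGCAG events had a median difference of 4.15 points in EMT, with 33 higher, and the 186 CAGCAG events one of 2.28 points, with 126 higher. The 7 AAGTAG events were all higher, with a median of 4.48 points. The 36 CAGAAG events, whose PSI was close to its upper limit, had a median of 0.20 points, and the 25 TAGAAG events one of −0.50 points, with 10 higher. The 81 TAGCAG events had a median of 0.63 points, with 46 higher, and the 19 CAGTAG events one of −0.18 points, with 9 higher. By the downstream trinucleotide, 210 of 318 events with CAG were higher, 24 of 37 with TAG and 38 of 75 with AAG.

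Among pairs with at least 100 reads on average, ARID1A, GPANK1 and ATF7IP had group means that spanned 24.6, 20.9 and 17.9 points. ZEB1, a transcription factor of EMT, had PSI values of 61.4, 63.2 and 60.3% in MES controls, but on average only 2.67 junction reads per EPI control library, so its span could not be read. GPANK1 had 30.2, 30.8 and 34.5% in EPI controls and 60.0, 54.2 and 44.1% in MES controls. SFPQ, a splicing factor whose pair lies in a 3′ UTR, had 57.3, 54.2 and 47.3% against 65.4, 66.2 and 62.0% (adjusted p = 0.23), and 67.0 and 68.8% in MES shAKAP8. ANKRD11, FAM122B and ZZZ3 spanned 15.4, 16.6 and 15.5 points between their lowest and highest group means, and none passed the adjusted p in a comparison.

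The knockdown comparisons ask whether AKAP8 depletion moves acceptor choice within each state. In EPI cells 0 of 443 events changed by the quasi-binomial test, where 0% of all 2568 events were called and 0.156% passed the adjusted p at any size. At an unadjusted p under 0.05 there were 21 events, 4.74% where 6.35% of all events passed, and limma on the logit also called 0. The groups did not overlap in 41 events, 9.26% where 9.07% of all events did not. In MES cells 0 of 427 changed, where 0.0839% of all 2385 events were called and 0.21% passed at any size. The unadjusted count was 18, 4.22% where 5.2% of all events passed, and the groups did not overlap in 145, 34% where 31.3% of all events did not. The median difference was −0.31 points in EPI and −0.38 in MES.

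Simulated tables of the same depth held all 2568, 2385 and 2591 alternative 3′ splice site events of EPI knockdown, MES knockdown and EMT. In each, 200 events were changed. A difference of 20 points was recovered in 85.5%, 69.5% and 80% of the changed events, and one of 10 points in 36.5%, 34.5% and 40%. Recovery asked for both the adjusted p and an observed difference of 10 points or more. Among changed events with at least 100 reads, 10 points was recovered in 54.2%, 50% and 51.7%. For 20 points these rates were 98.4%, 91.2% and 96%. Simulated differences near 10 points were thus often not called, through the size limit as well as through depth. Rates for the 3-nt events alone were not read. In EPI knockdown 330 of 443 3-nt events had an intermediate PSI, against 935 of all 2568. The rates may therefore not hold for the 3-nt events.

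The smallest p in EPI knockdown belonged to ARHGAP5, a GTPase-activating protein, with 73.3, 78.6 and 83.7% in controls and 96.1, 100 and 100% in shAKAP8 (adjusted p = 0.522). That event had 22.3 reads per library, and the same acceptors joined to another donor, with 216 reads, had a difference of −4.44 points. FAM73A, a mitochondrial outer membrane protein, had 29.3, 39.1 and 42.4% against 23.4, 18.7 and 11.9%, without overlap (adjusted p = 0.625). CDK8, a kinase of the Mediator complex, had 80.8, 74.5 and 74.6% against 71.2, 60.8 and 62.4%, and AFF1, a scaffold of transcription elongation, 95.1, 99.1 and 98.1% against 94.2, 89.5 and 88.7%. Both were without overlap, with an adjusted p of 0.63.

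In MES knockdown the smallest p belonged to RAP1GDS1, an exchange factor for small GTPases, with 48.9 and 40.9% in the 2 controls of that table and 32.3 and 33.5% in shAKAP8 (adjusted p = 0.547). The third MES control, which only the EMT table holds, had 31.0%, below both knockdown libraries. ARNTL, a transcription factor of the circadian clock, had 75.1 and 67.7% against 65.3 and 43.4%, with 61.1% in the third control. CEP192, a centrosome protein, had 35.9 and 38.4% against 76.3 and 60.4%, and the third control had 64.5%, inside the knockdown range. TMEM219 had 46.0 and 53.0% against 32.9 and 34.4%, and the third control had 42.5%, above both knockdown libraries. TLE3, a transcriptional corepressor, and the sodium-calcium exchanger gene SLC8A1 had 24.6 and 90.5% and 30.8 and 74.6% in their knockdown libraries, which lay farther from each other than their mean lay from the controls, at 30.8 and 23.5 reads per library.

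**Figure D5:**
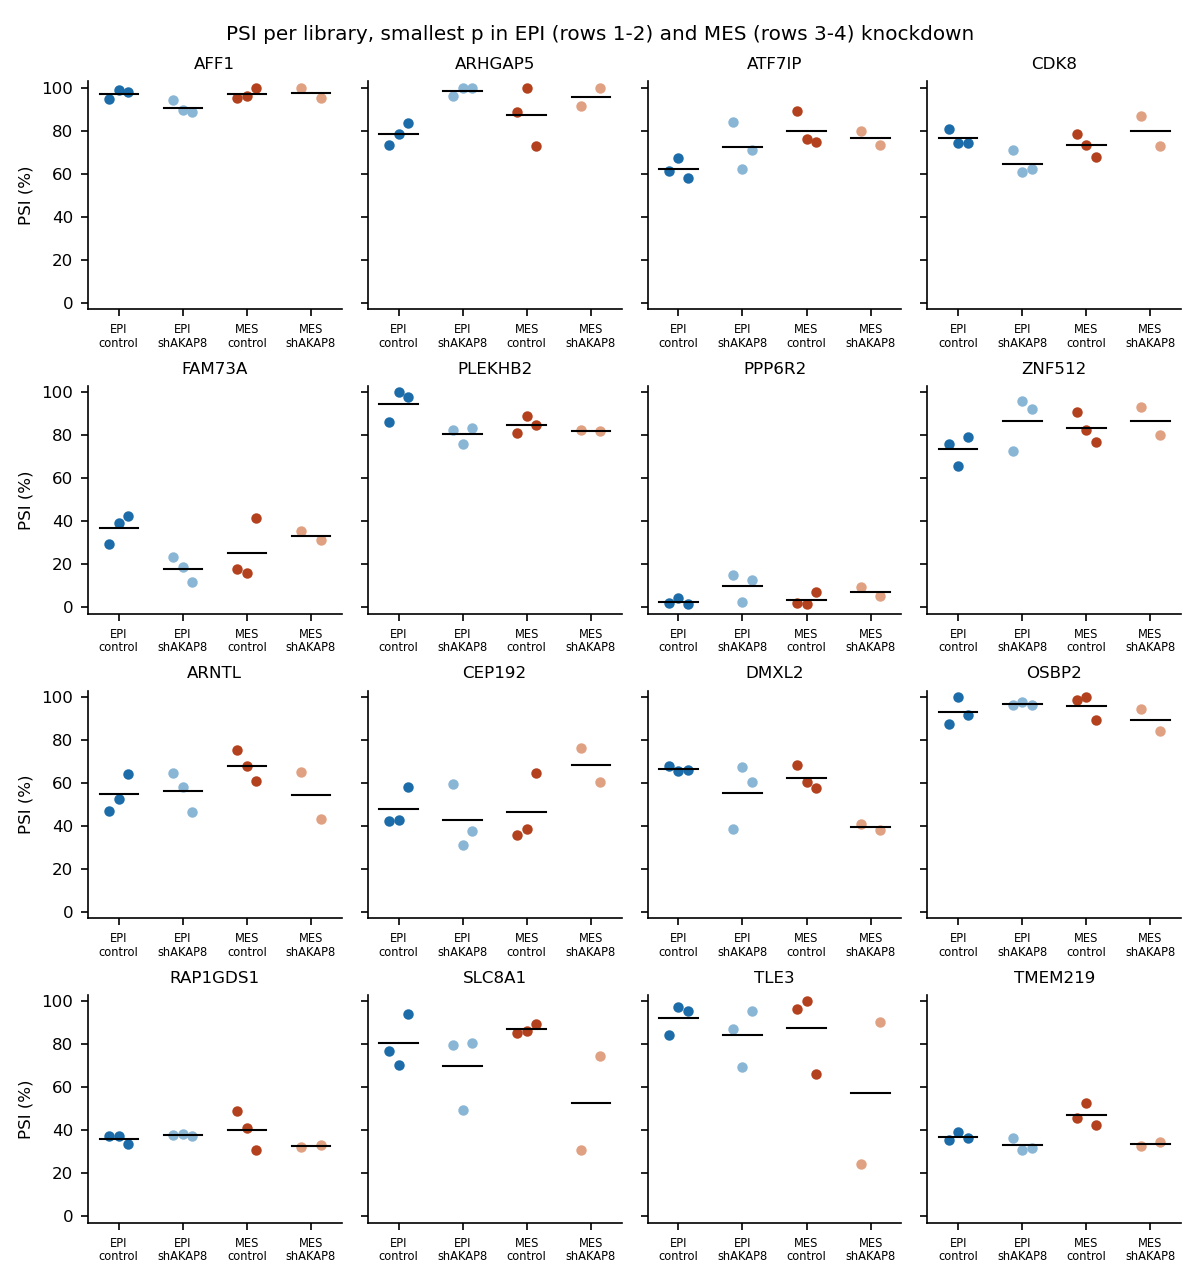
PSI in percent (vertical axis) in each library for the 8 pairs with the smallest p in EPI knockdown (upper rows) and in MES knockdown (lower rows), with group means as lines. None passed the adjusted p, and the third MES control, absent from the MES knockdown table, lies among or beyond the knockdown libraries in 5 of the 8 MES pairs (RAP1GDS1, CEP192, ARNTL, TLE3 and OSBP2).

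Whether the knockdown acted differently in the 2 states was tested with an interaction term over all 11 libraries. It called 0 of 427 events, where 0% of 2258 events were called, and at an unadjusted p under 0.05 there were 18, 4.22% where 6.2% of all events passed. The comparisons share libraries, the EPI controls between EPI knockdown and EMT and the MES controls between MES knockdown and EMT. FAM73A, for example, differed by −19.0 points in EPI knockdown, 16.6 in MES knockdown and −11.8 in EMT, with an adjusted p of 0.625, 0.87 and 0.59. The MES knockdown difference used 2 controls, at 17.7 and 16.0%. The third MES control had 41.8%, above both MES shAKAP8 libraries, at 35.7 and 31.1%.

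Host genes were grouped by the opening letters of their symbols, and the function of each gene was not checked. Their counts in EMT stand beside 1.27% of all alternative 3′ splice site events called and 47.4% higher, and 62.8% of the 3-nt events higher. Of the pairs in RNA processing genes, 18 had enough reads and 16 of these an EPI control PSI from 10 to 90%. RBM8A, a core subunit of the exon junction complex, ran from 88.2 to 91.7% over the 11 libraries, SRSF10, a splicing regulator, from 74.3 to 79.8%, and RBFOX2, a splicing regulator of EMT, from 31.6 to 39.7%. EWSR1, an RNA-binding protein, had a mean of 44.6% in EPI controls and 52.7% in MES controls (adjusted p = 0.16). None of this group's 20 events changed in EMT, with 14 higher and a median difference of 1.85 points.

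In chromatin and transcription genes 3 of 48 events changed in EMT, those of ATF7IP, ARID1A and BRD7, and 34 were higher, with a median of 2.01 points. FOXM1, a transcription factor of the cell cycle, held 2 pairs, with mean EPI control PSI values of 55.4% and 17.6%. In the group named for cytoskeleton and adhesion 0 of 23 events changed, with 17 higher and a median of 1.61 points. By their letters alone ANKRD11, ANKRD17, ANKFY1, ANKS6 and MAP4K4 also fell in this group, so its name may not hold for them. MLLT4, the junction protein afadin, also held 2 pairs, whose means were 57.3% and 59.2% in EPI controls, 56.4% and 62.3% in EPI shAKAP8, 62.6% and 55.8% in MES controls and 69.6% and 50.7% in MES shAKAP8. Neither passed the adjusted p in a comparison. No event of the 3 groups changed in either knockdown.

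Of 34 listed factors that act in 3′ splice site selection, 23 could be tested. As with the markers, the others had no skipped-exon event listed in every comparison, so their levels were not read. In EMT 2 of the 23 passed (8.7%, where 23.9% of all genes did), and in MES knockdown 2 (8.7%, where 4.16% did). The MES knockdown count includes AKAP8, the target of the shRNA, whose fall the design set. That share is therefore not a result about the other factors. HNRNPM, a regulator of exon skipping in EMT, and SF3A3, a subunit of the U2 particle, rose in EMT by 0.70 and 0.59 on the log2 scale (limma, adjusted p = 0.00785 and 0.00583). In MES knockdown AKAP8 itself and SF3B3, another U2 subunit, fell, by 1.20 and 0.68 on the log2 scale, and in EPI knockdown 0 factors passed limma's adjusted p, with 2 at an unadjusted p under 0.05. Without the first EPI control, the first MES control or either MES shAKAP8 library 0 factors passed in MES knockdown, without the third EPI control or the second or the third MES control 1 did, and without the second EPI shAKAP8 library 6 passed in MES knockdown and 6 in EMT. The part of these levels in acceptor choice was not tested.

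AKAP8 binding, measured by eCLIP, was rarely listed near these acceptors. A peak on the same strand lay within 500 nt of the upstream acceptor at 5 of 541 pairs (0.924%) in EPI cells and at 9 (1.66%) in MES cells, where acceptors over 3 nt apart had one at 2.32% and 1.05% of 2582 pairs. All 5 EPI pairs were among the 9, with pairs in EEF1D, PUF60 and DGKZ among them, and TLE2, SLC38A10, DAZAP1 and EIF4A2 had a peak in MES alone. DGKZ held 2 of these pairs, which lay near the same peak in each state, so these counts are of pairs and not of binding sites. At 1 pair, in DGKZ, a diacylglycerol kinase gene, the peak lay within 100 nt in both states. Its EPI control PSI was 99.2%, close to the upper limit, and it differed by −1.18 points in EPI knockdown and 1.58 in MES knockdown (adjusted p = 0.864 and 0.886). The peak lists merge 2 replicates each, so no spread between replicates could be given, and levels of the host genes were not matched.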

How the data were processed

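Stranded polyA RNA-seq of 11 libraries and AKAP8 eCLIP were used. The authors aligned reads to GRCh37 with STAR and deposited rMATS tables holding, per event, lists of junction read counts for each library and effective lengths of both forms. The lists carry no replicate number. The deposited peak lists give the −log10 p and the log2 of immunoprecipitated over input reads of peaks merged over 2 replicates. The authors' fold changes, p-values and FDR columns were not used, and 66 further columns of per-library lists (30 of inclusion levels, 36 of other event types) were not read.

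PSI was computed from the reads. Events averaging 20 or more reads in a library entered a quasi-binomial F test in R 4.3.3 (dispersion shrunk to a robust trend), adjusted by Benjamini-Hochberg over all events; "changed" meant an adjusted p under 0.05 and 10 points. The test was checked on simulated data. Gene levels were skipped-exon junction reads summed per gene over 33107 events, scaled, and tested as log2(value + 1) with limma 3.58.1. Such sums follow the listed events as well as expression. Sequences come from GRCh37 and annotation from Gencode 44 lifted to it, newer than the authors' version. Reads with a short overhang may not separate acceptors 3 nt apart, and how this moves PSI was not tested.

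Named events were those that changed, the 8 smallest p per comparison with 5 points or more, the 8 pairs with most reads at an EPI control PSI of 20 to 80%, the 8 with the widest group means at 100 reads, and up to 6 per host gene list. From these, examples are printed, a few items are not reported here, and LIMA1, the stop-forming pairs and the pairs with peaks were chosen after their values were seen. The members and lists were chosen with earlier results of these data known. The alternatives were other read minimums, trends, size limits and tests, summed acceptor pairs and each library left out.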

Additional observations from a re-analysis of the deposited data

How the results depend on the processing

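In EPI knockdown, MES knockdown and the interaction the count of changed events was 0 under every alternative run. In EMT the 5 calls became 0 with limma on the logit and 2 with a trend that was not robust, and leaving out 1 library gave 0 to 8. The other EMT settings gave 4 to 6. ARHGAP5 in EPI knockdown reversed to −0.84 points when its donors were summed, which adds the more deeply read donor. The pairs near an eCLIP peak, 5 in EPI and 9 in MES, became 1 and 1 within 100 nt, 16 and 18 within 1000 nt, and 1 and 2 at a log2 of at least 3. With the study's own peak cutoffs, chosen after seeing the data, they were 4 and 5. The median EPI control PSI was 61.8% at a minimum of 50 reads and 58.8 to 60.6% with 1 library left out. The count of splice site factors passing ranged from 0 to 6 in MES knockdown and from 2 to 6 in EMT with 1 library left out, also chosen after seeing the data. Where not stated, the cause was not tested. No paired analysis was possible because the lists of reads carry no replicate numbers.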
